A study of Mus musculus with 6 samples.

Results

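Photoreceptor and bipolar cell genes were examined in dissected mouse lenses as the 12 probe sets of the array that the platform annotation maps to exactly 1 symbol among Nrl, Rcvrn, Rrh, Nyx, Opn1sw, Gnat1, Pde6b, Arr3 and Rxrg. These are 9 of the 18193 genes, and 12 of the 45037 probe sets, that were measured besides controls. The study hybridised RNA of E19.5 lenses (embryonic day 19.5, shortly before birth) to 6 oligonucleotide arrays. Of these, 3 came from littermates without ablation, called wild type, and 3 from conditional mutants whose lenses lacked Notch2, a Notch pathway receptor. All 6 embryos had a mixed C57BL/6 and FVB/N background. Both lenses of an embryo were pooled for its array, and the arrays of a group are biological replicates. The sources used here do not give the Cre driver or the exons removed. The comparison asked which transcripts differ when the lens lacks Notch2.

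Rods and cones detect light when an opsin activates the G protein transducin, transducin releases the inhibition of a cGMP phosphodiesterase, and the fall of cGMP closes cation channels. Arrestins end the signal of the opsin, and recoverin delays its phosphorylation. ON bipolar cells, the next neurons of the retina, read the photoreceptor signal through a glutamate receptor cascade at their dendritic tips. Nrl is the transcription factor that commits precursors to the rod fate. In the mouse retina many genes of this machinery are switched on only around and after birth. The label does not cover all members equally well, because Rrh encodes peropsin, an opsin-like protein known from the retinal pigment epithelium rather than from photoreceptors.

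2 of the 9 genes rose in mutant lenses, Rrh and Nyx, and no member fell. Rrh was 3.13-fold higher and Nyx, which encodes the bipolar cell protein nyctalopin, was 2.12-fold higher. Neither gene has another probe set among the 12. Where the probe sets of Rrh and Nyx lie in their transcripts could not be checked. The genes of rod and cone light detection, Gnat1, Pde6b, Rcvrn, Opn1sw and Arr3, did not pass the test, nor did the transcription factor genes Nrl and Rxrg. Limma's adjusted p had to be below 0.05 over all probe sets. The share of probe sets that passed was 0.469% over the whole array, 0.293% when only rises are counted, against 2 of the 12 probe sets here. Counted by gene, 0.912% of all genes had a passing probe set, against 2 of 9 here. The members were chosen with earlier results of these data known, so these shares are a description only.

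The RefSeq promoter sequences of both genes that rose, and of the phosphodiesterase gene Pde6b for comparison, are shown to set the letters near their start side by side. Each runs from 250 bases before to 50 after the gene's start on assembly GRCm38.p6, 5′ to 3′ on the gene's strand: Rrh at chr3:129822456-129822755 (minus strand), Nyx at chrX:13460840-13461139 (plus strand) and Pde6b at chr5:108388123-108388422 (plus strand). Capitals mark TGCTGA, the core letters bound by Maf family factors, of which Nrl is one.
Rrh promoter: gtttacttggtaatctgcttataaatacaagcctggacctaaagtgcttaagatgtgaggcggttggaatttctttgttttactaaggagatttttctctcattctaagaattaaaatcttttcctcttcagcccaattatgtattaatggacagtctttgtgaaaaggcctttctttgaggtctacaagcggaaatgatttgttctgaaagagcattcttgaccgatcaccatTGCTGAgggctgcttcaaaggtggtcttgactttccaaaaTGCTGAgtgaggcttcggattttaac
Nyx promoter: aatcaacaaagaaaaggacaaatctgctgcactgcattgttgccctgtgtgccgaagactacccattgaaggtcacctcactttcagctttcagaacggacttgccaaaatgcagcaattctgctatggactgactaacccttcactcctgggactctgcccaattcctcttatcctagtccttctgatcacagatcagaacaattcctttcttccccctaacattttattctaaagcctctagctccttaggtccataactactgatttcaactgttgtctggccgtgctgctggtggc
Pde6b promoter: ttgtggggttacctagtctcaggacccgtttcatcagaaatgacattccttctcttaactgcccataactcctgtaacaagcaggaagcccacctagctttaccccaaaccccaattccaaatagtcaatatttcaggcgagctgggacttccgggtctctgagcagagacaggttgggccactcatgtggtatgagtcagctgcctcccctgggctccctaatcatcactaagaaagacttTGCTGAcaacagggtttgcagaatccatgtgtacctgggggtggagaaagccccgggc

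TGCTGA or its reverse complement occurred in the promoters of 3 of the 7 members with a sequence, Rrh, Pde6b and Opn1sw, and in 19.5% of the 32851 mouse promoters of this length. Rrh held 2 copies, 1 beginning 16 bases before and 1 beginning 24 bases after the start, Pde6b held 1 beginning 8 bases before it, and Nyx held none. GGATTA, the core bound by Crx and Otx2, was searched on both strands as well. It was in none of the 8 promoters of these 7 genes, which include both promoters of Rxrg, and in 7.06% of all promoters. Neither motif was thus shared by the 2 genes that rose. These matches describe letters within this window and are not evidence of binding.

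Values below are on the log2 scale and centred per probe set on the median of the 6 arrays. They give differences between arrays but no level, and by construction the 2 middle values of a probe set lie at equal distances from 0. Differences are mutant minus wild type with limma's standard error (SE), 95% confidence interval and adjusted p, with 3 arrays per group. Because no level is left, neither detection of a member nor the presence of the lens markers in these samples could be checked. Of Notch2 itself, 2 probe sets gave 0.49 (SE 0.45, limma adjusted p = 0.752) and -0.42 (SE 0.21, limma adjusted p = 0.514) with overlapping groups. They do not check the genotypes, since the deleted exons are not stated. Array standard deviations lay between 0.223 and 0.384, with wild type 3 the widest. The mean of the hybridization controls, bacterial transcripts spiked in before hybridization, was low in wild type 1, wild type 2 and mutant 1 (-1.50 to -0.99) and high in wild type 3, mutant 2 and mutant 3 (0.99 to 1.48). Both sets hold both genotypes. The labels record no batch.

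**Figure D1:**
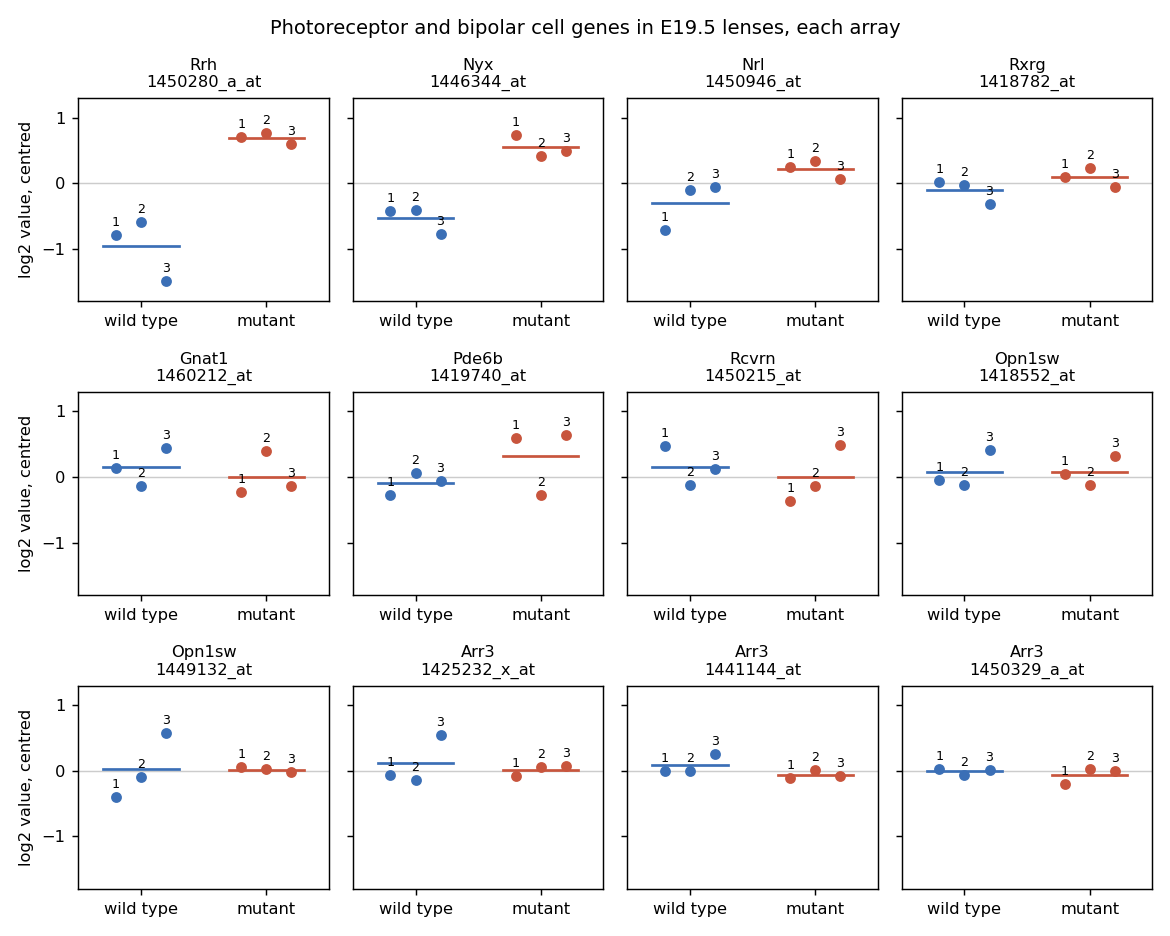
Each panel plots 1 member probe set, with its centred log2 value on the vertical axis and the genotype on the horizontal axis. Points are single arrays with their replicate number, and bars are group means. Rrh and Nyx separate the genotypes by the widest gaps, from -0.59 to 0.59 for Rrh and from -0.41 to 0.41 for Nyx. Nrl separates them narrowly, and every other panel shows overlapping groups.

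Rrh read -0.79, -0.59 and -1.49 in wild type arrays 1 to 3 against 0.70, 0.77 and 0.59 in mutant arrays 1 to 3. All mutant arrays were above all wild type arrays, the mutants lay close together, and wild type 3 was the lowest. The mean went from -0.96 ± 0.47 to 0.69 ± 0.09 (SD, n = 3), a difference of 1.65 (SE 0.23, interval 1.13 to 2.17, limma adjusted p = 0.0365), or 3.13-fold with an interval of 2.18 to 4.49. Within the arrays of low hybridization controls (2 wild type, 1 mutant) the difference was 1.40. Within those of high controls (1 wild type, 2 mutant) it was 2.17. Neither could be negative, since all mutant arrays were above all wild type arrays. The call depended on which array was left out. Rrh still passed without wild type 2 (limma adjusted p = 0.0305) or wild type 3 (limma adjusted p = 0.0357). It did not pass without wild type 1 (limma adjusted p = 0.159), mutant 1 (limma adjusted p = 0.108), mutant 2 (limma adjusted p = 0.171) or mutant 3 (limma adjusted p = 0.0653), while its difference stayed between 1.38 and 1.83.

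Peropsin is a pigment epithelium protein, and no other gene on the lists for that tissue passed the test. In the list of other opsins and visual cycle genes, limma called none of 12 measured genes in either direction. An unadjusted p below 0.05 was found for 1 higher and 0 lower, where 15.6% of all genes had one. The list's median difference was 0.12, against -0.03 over all 18193 genes. The gene with the smallest p was Rdh10, a retinol dehydrogenase that takes part in retinoic acid synthesis (0.74, SE 0.17, limma adjusted p = 0.104). Its other probe set gave 0.76 (limma adjusted p = 0.0686). Rdh10 passed with the hybridization control mean as a covariate (0.83, limma adjusted p = 0.0473). Rpe65, the isomerase of the visual cycle and a defining gene of the pigment epithelium, read 0.04, 0.08 and 0.22 in wild type arrays and -0.08, -0.35 and -0.04 in mutants, a difference of -0.27 (SE 0.16, limma adjusted p = 0.580). Its mutant values all lay below the wild type ones. Rdh5, the retinol dehydrogenase of the same cycle, differed by -0.38 (SE 0.18, limma adjusted p = 0.488). Of the 12 genes of this list 8 lay above 0. Among 13 pigmented epithelium and melanocyte markers, which include Rpe65 and 4 further genes of the former list, limma called none. At an unadjusted p below 0.05 were 1 higher and 2 lower, against 15.6% of all genes. The higher one was Dct, an enzyme of melanin synthesis (0.61, SE 0.17, limma adjusted p = 0.175). The lower ones were Mitf, a transcription factor of pigment cells (-0.55, SE 0.20, limma adjusted p = 0.329), and Oca2, a melanosome protein (-0.47, SE 0.18, limma adjusted p = 0.331). Dct, Mitf and Oca2 all had groups that did not overlap. In this list 1 gene higher and 3 lower had such groups, and 17.8% of all probe sets did. The list's mean per array ranged from -0.01 to 0.06 in wild type, and from -0.09 to 0.16 in mutants.

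Nyx encodes nyctalopin, a leucine-rich repeat protein that holds the cation channel of ON bipolar cells in place. Its probe set read -0.42, -0.41 and -0.77 in wild type arrays 1 to 3 against 0.74, 0.41 and 0.50 in mutant arrays 1 to 3. As for Rrh, the groups did not overlap and wild type 3 was lowest. The mean went from -0.53 ± 0.20 to 0.55 ± 0.17 (SD, n = 3), a difference of 1.08 (SE 0.17, interval 0.70 to 1.47, limma adjusted p = 0.0422). Within the arrays of low hybridization controls (2 wild type, 1 mutant) Nyx differed by 1.16, and within those of high controls (1 wild type, 2 mutant) by 1.22. As its groups did not overlap, neither difference could be negative. Leaving out any 1 array ended the call, with limma adjusted p between 0.0693 and 0.197 and differences between 0.97 and 1.15. Rrh and Nyx followed each other closely over the 6 arrays (Pearson r = 0.98, Spearman rank correlation 0.83), a description that rests mainly on the gap both share between genotypes.

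The measured partners of nyctalopin in the bipolar cell cascade did not pass. Trpm1, the cation channel itself, differed by 0.13 (SE 0.26, limma adjusted p = 0.898), and Gpr179, a receptor-like protein of the same complex, by 0.0049 (SE 0.21, limma adjusted p = 0.996). The sign of neither is settled, since Trpm1 read -0.043 without mutant 1 and Gpr179 read -0.094 with the hybridization control mean as a covariate. Both genes were picked for mention after their values were seen, and Grm6, the glutamate receptor, was not analysed here. Of the 19 measured genes on the bipolar cell list, 2 rose, none fell and the median difference was 0.01. By the probe set taken for each gene, 0.748% of all genes passed and 0.489% rose. The 2 were Neurod4 (2.28, SE 0.34, limma adjusted p = 0.0385) and Isl1 (2.04, SE 0.32, limma adjusted p = 0.0419). Neurod4, a bHLH factor of bipolar and amacrine precursors, read -1.35, -0.65 and -2.20 in wild type against 1.06, 0.93 and 0.65 in mutants. Its other probe sets gave 1.51 and 0.11 and did not pass (limma adjusted p = 0.0606 and 0.879). Isl1, a homeodomain factor of bipolar but also of retinal ganglion cells, read -1.31, -0.55 and -1.15 against 0.81, 1.75 and 0.55. Its other probe set gave 1.82 and did not pass (limma adjusted p = 0.0513). With 1 array left out, Neurod4 passed only without wild type 2 or wild type 3, and Isl1 only without wild type 2. Both genes that rose are transcription factors expressed in retinal precursors, and neither is restricted to bipolar cells. Irx5, a homeodomain factor of bipolar subtypes, differed by 1.21 (SE 0.27) with limma adjusted p = 0.0919, and passed with the replicate number as a block (limma adjusted p = 0.0207) and when only the more variable probe sets were fitted (limma adjusted p = 0.00312). Prkca, the protein kinase C of rod bipolar cells, read 0.30, 0.11 and 0.67 against -0.55, -1.51 and -0.11, a difference of -1.09 (SE 0.33, limma adjusted p = 0.217) that did not pass, but did in the fit of the more variable probe sets (limma adjusted p = 0.0117). In that fit, added after seeing the data, 4 genes of this list passed, 3 of them higher. Prkca too was picked after its value was seen, as the lowest of this list.

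Nrl, the rod fate factor, read -0.71, -0.11 and -0.06 in wild type arrays 1 to 3 against 0.25, 0.33 and 0.06 in mutant arrays 1 to 3. The groups did not overlap, but wild type 1 stood well below the other wild type arrays. The difference of 0.51 (SE 0.20, interval 0.05 to 0.97) had an unadjusted p of 0.0329 and did not pass in limma (adjusted p = 0.371). Without wild type 1 it was 0.30. Non-overlapping groups were common: 17.8% of all probe sets had them, 8.73% with mutants higher, against 3 of the 12 here, Rrh, Nyx and Nrl, all with mutants higher. Rxrg, a retinoid X receptor of cone precursors, read 0.02, -0.02 and -0.32 against 0.09, 0.23 and -0.06, with overlapping groups. It differed by 0.19 (SE 0.16, interval -0.18 to 0.57, limma adjusted p = 0.724). Among the other 7 retinoid and thyroid hormone receptor genes limma called none, none had an unadjusted p below 0.05, and the median difference was -0.15. Its named members were Thra (-0.30, SE 0.20, limma adjusted p = 0.653), Rxra (-0.24, SE 0.19, limma adjusted p = 0.698) and Thrb (-0.23, SE 0.20, limma adjusted p = 0.743), the last a factor of cone opsin choice. The other Thra probe sets gave 0.16 and -0.06, and those of Rxra -0.15 and -0.09.

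Some other factors of early photoreceptor and retinal development passed the test. Of 12 measured photoreceptor transcription factor genes 2 rose and none fell. The median difference was 0.53, which lies in a gap between 6 genes above 0, all at 1.06 or more, and 6 below 0. Otx2, the homeodomain factor that starts the photoreceptor programme, read -1.56, -0.58 and -1.89 in wild type against 0.84, 1.48 and 0.58 in mutants, a difference of 2.31 (SE 0.34, limma adjusted p = 0.0385). Foxn4, a forkhead factor of retinal progenitors that favours amacrine and horizontal cells, differed by 1.06 (SE 0.16, limma adjusted p = 0.0419). Just short of the threshold were 4 genes. These were the nuclear receptor gene Rorb, which acts upstream of Nrl (2.18, SE 0.41, limma adjusted p = 0.0587), Prdm1, which holds precursors on the photoreceptor path (1.56, limma adjusted p = 0.0623), the bHLH factor gene Neurod1 (2.04, limma adjusted p = 0.0655) and Crx (1.46, limma adjusted p = 0.0660), the homeodomain partner of Nrl. The 6 genes below 0 did not pass. The lowest were Esrrb, a nuclear receptor gene of rods, at -0.60 (SE 0.22, limma adjusted p = 0.315) with groups that did not overlap, and Mef2d at -0.35 (SE 0.21, limma adjusted p = 0.598). Prdm1, Neurod1, Crx, Esrrb and Mef2d were picked after their values were seen. The count for this list depended on the setting: 6 passed with repeated quantile normalisation, with array weights or in the fit of the more variable probe sets, 5 with the replicate block and 4 with the hybridization control mean as a covariate. With 1 array left out, 4 passed without wild type 2, 1 without mutant 3, and 0 without wild type 1, wild type 3, mutant 1 or mutant 2. Otx2 passed only without wild type 2, and the call of Foxn4 ended with any array left out (limma adjusted p of 0.0574 or more). All 3 Rorb probe sets were above 0, at 0.91, 1.88 and 2.18. Whether Nrl differs less than these genes was not tested.

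**Figure D2:**
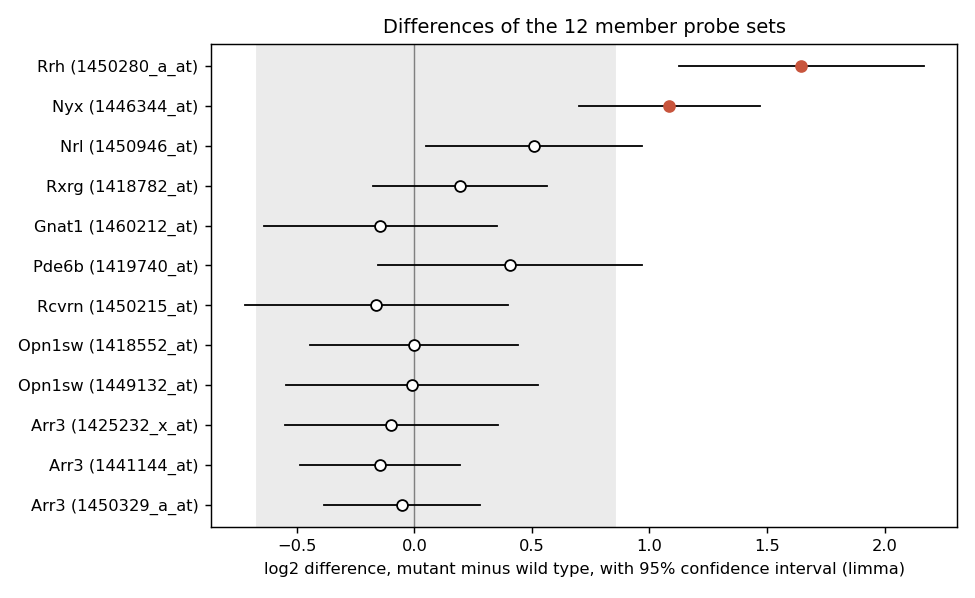
Points are log2 differences, mutant minus wild type, of the 12 member probe sets, with limma's 95% confidence interval as horizontal lines. Filled points passed at an adjusted p below 0.05, and the grey band covers the central 95% of the differences of all genes, from -0.67 to 0.85. Rrh and Nyx lie outside the band at 1.65 and 1.08, and 9 of the other 10 intervals include 0.

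Among the rod genes, Gnat1 encodes the alpha subunit of rod transducin. It read 0.14, -0.14 and 0.44 in wild type arrays 1 to 3 against -0.24, 0.39 and -0.14 in mutant arrays 1 to 3, with fully mixed groups. Its difference was -0.14 (SE 0.22, interval -0.64 to 0.35, limma adjusted p = 0.864). Pde6b, the beta subunit of the rod phosphodiesterase, read -0.27, 0.06 and -0.06 against 0.59, -0.28 and 0.64. Mutant 1 and mutant 3 stood above all wild type arrays while mutant 2 was the lowest of the 6, and the difference was 0.41 (SE 0.25, interval -0.16 to 0.97, limma adjusted p = 0.605). Without mutant 2 it was 0.70 (limma adjusted p = 0.264). FVB/N mice are known to carry a retinal degeneration allele of Pde6b, and the labels give no genotype at this gene for the 6 embryos, so its part in these values was not tested. Rcvrn, the calcium sensor recoverin, read 0.47, -0.11 and 0.11 against -0.37, -0.14 and 0.49, so that mutant 3 was as high as wild type 1. It differed by -0.16 (SE 0.25, interval -0.72 to 0.40, limma adjusted p = 0.864).

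The cone genes Opn1sw and Arr3 differed by at most 0.15 in size. Opn1sw, the short-wavelength cone opsin, had 2 probe sets. The more variable one read -0.40, -0.10 and 0.58 in wild type against 0.05, 0.03 and -0.03 in mutants, with a difference of -0.01 (SE 0.24, interval -0.54 to 0.53, limma adjusted p = 0.994). Wild type 1 and wild type 3 lay farthest from the mutants, on opposite sides. The other read -0.04, -0.12 and 0.41 against 0.04, -0.12 and 0.32, with a difference of 0.00 (SE 0.20, interval -0.44 to 0.44). Arr3, the cone arrestin, had 3 probe sets with differences of -0.10 (SE 0.20), -0.15 (SE 0.15) and -0.05 (SE 0.15), and limma adjusted p between 0.782 and 0.934. In the most variable of them wild type 3 read 0.54 and the other 5 arrays lay between -0.14 and 0.07. The signs of both Opn1sw differences turned under other scalings, and that of this Arr3 difference turned with array weights and without wild type 3 (0.11), so no direction is given for them. The intervals of both Opn1sw and all Arr3 probe sets leave room for changes of up to 0.55 in size. Spread over the arrays was small for 2 of the Arr3 probe sets, at the 10.9 and 3.00 percentile of all probe sets, against the 99.6 percentile for Rrh and 97.7 for Nyx.

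Other genes of light detection, taken from a list of rod and cone phototransduction, likewise did not pass. Limma called none of the 25 measured in either direction, and 3 higher and 0 lower had an unadjusted p below 0.05, where 15.6% of all genes did. The median difference was 0.01. The 3 were Gnb3, a transducin beta subunit of cones that bipolar cells also use (0.68, SE 0.19, limma adjusted p = 0.192), Cngb3, a subunit of the cone channel (0.64, SE 0.27, limma adjusted p = 0.412), and Gnat2, the cone transducin alpha subunit (0.44, SE 0.19, limma adjusted p = 0.413). Cngb3 rested on mutant 2, which read 1.14 while the other mutants both read 0.09. Without mutant 2 it was 0.29. Cnga3 and Gucy2f were not analysed here.

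Genes of the photoreceptor outer segment and its neighbourhood formed a list of 17 measured genes, of which limma called none. At an unadjusted p below 0.05 were 5 higher and 0 lower, against 15.6% of all genes. The median difference was 0.07. Rpgrip1, a protein of the connecting cilium (0.82, SE 0.17, limma adjusted p = 0.0744), and Prom1, a protein of disc formation that retinal progenitors also make (0.83, SE 0.18, limma adjusted p = 0.0835), came closest. Both passed with repeated quantile normalisation and with array weights. The other Rpgrip1 probe sets gave 0.74, 0.36 and 0.13. Rbp3, the retinoid carrier between photoreceptors and pigment epithelium that appears early in photoreceptor precursors, differed by 0.92 (SE 0.21, limma adjusted p = 0.0976). A second Rbp3 probe set read -0.06.

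**Figure D3:**
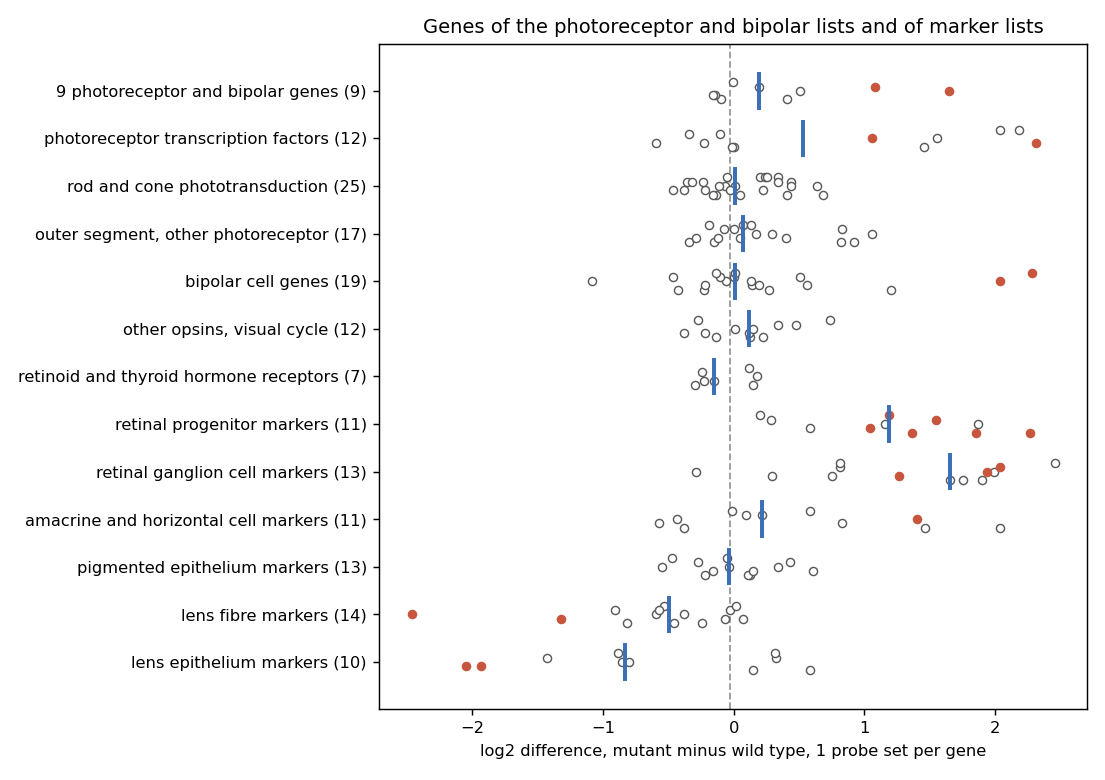
Each point is the log2 difference, mutant minus wild type, of 1 gene by its most variable probe set. Rows are gene lists with the number measured, filled points passed in limma at an adjusted p below 0.05, vertical bars are list medians, and the dashed line is the median of all genes at -0.03. Among the photoreceptor and bipolar rows the filled points are Rrh, Nyx, Otx2, Foxn4, Neurod4 and Isl1, while the phototransduction row centres at 0.01.

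Some markers of other retinal cells also rose. Of 11 measured retinal progenitor markers 6 rose and none fell: Atoh7, the bHLH factor of ganglion cell precursors (1.85), the bHLH factor gene Neurog2 (2.27), Sfrp2 (1.55), the eye field homeodomain factor gene Six6 (1.36), Lhx2 (1.19) and Dapl1 (1.04). The mean of the 11 per array ranged from -0.97 to -0.35 in wild type, and from 0.32 to 0.65 in mutants. Of 13 retinal ganglion cell markers 3 rose and none fell, Isl1, the neuronal tubulin gene Tubb3 (1.94) and Elavl3 (1.27). Pou4f3 was the only one below 0 (-0.29), and the list mean went from -0.89 to -0.27 in wild type to 0.24 to 1.31 in mutants. Of 11 amacrine and horizontal cell markers 1 rose, Ptf1a (1.40), with list means of -0.38 to -0.11 against 0.17 to 0.44. In this list 4 genes lay below 0, the lowest being Prox1 (-0.57, SE 0.24, limma adjusted p = 0.393), Gad1 (-0.43) and Calb1 (-0.38). The part of these cells in the results on Rrh and Nyx was not tested. In these bulk samples more cells of a type and more RNA per cell cannot be told apart.

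Lens marker means were lower in mutants. Of 14 lens fibre markers 2 fell, Dnase2b and Maf, with array means of 0.26 to 0.42 in the wild type and -0.32 to -0.24 in mutants. In this list 2 genes lay just above 0, the crystallin genes Crygs (0.07) and Cryba1 (0.01), and Cryaa read -0.03. Of 10 lens epithelium markers 2 fell, Cdh1 and Pdgfra, with array means of 0.22 to 0.42 against -0.49 to -0.27. In the epithelium list 4 genes lay above 0, the highest being Pax6 (0.59, SE 0.23, limma adjusted p = 0.367), which is also on the retinal progenitor list. Of 12 macrophage markers limma called none but 7 were higher at an unadjusted p below 0.05, against 15.6% of all genes in either direction. The array means of this list ran from -1.09 to 0.01 in wild type against 0.07 to 0.55 in mutants. The periocular mesenchyme list held 1 rise in 9, Col6a1, but only 2 of its genes lay above 0 and its median difference was -0.07. With 1 array left out, Dnase2b passed in all 6 cases, Cdh1 in 4 and Atoh7 in 2. Lhx2, Neurog2, Sfrp2, Ptf1a, Isl1 and Pdgfra each passed in 1, and Dapl1, Six6, Tubb3, Elavl3, Maf and Col6a1 in none. Limma called none of 9 endothelial, 3 erythroid and 7 skeletal muscle markers, and none of them had an unadjusted p below 0.05. Their part was not tested either.

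**Figure D4:**
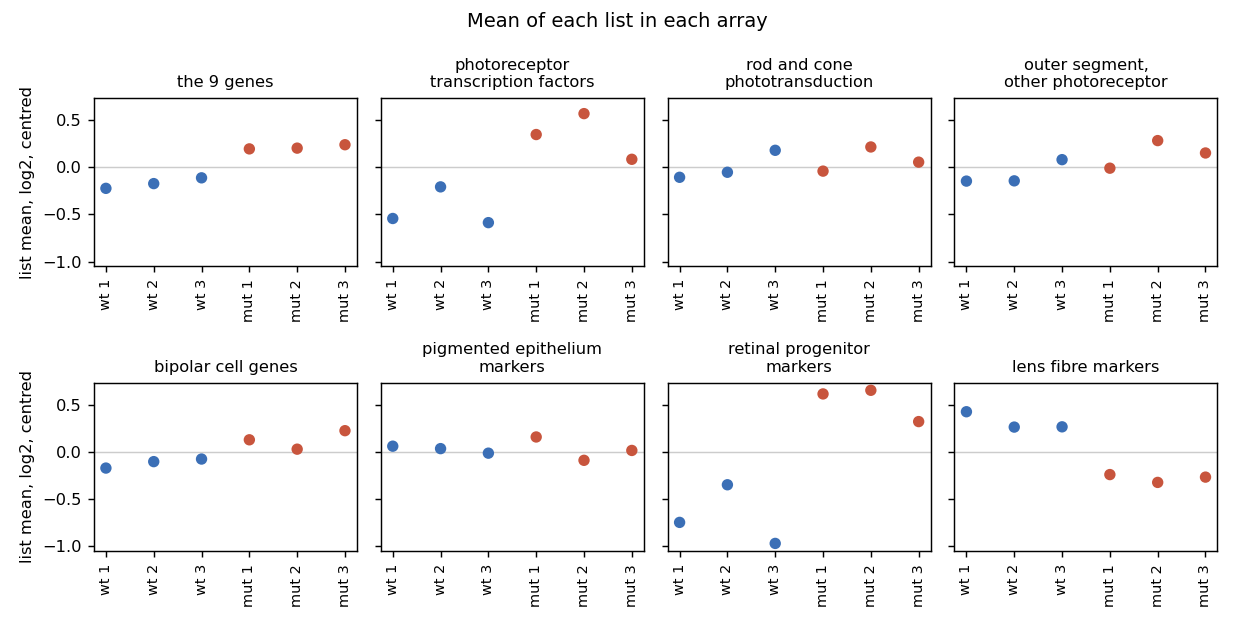
Points are the mean centred log2 value of a list in each array, wild type in blue and mutant in red. Retinal progenitor markers and photoreceptor transcription factors are higher in all mutants than in all wild type arrays, lens fibre markers are lower, and phototransduction genes overlap, with wild type 3 at 0.18 and mutant 1 at -0.04.

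The genes whose pattern was most like the mean of the 9 members over the 6 arrays were Cd83, Htra1, Fgf12, Tex14, Chek1, Spint2, Prrg3 and Klhl7, in this order, with Pearson r from 0.997 to 0.991. Their likeness is a description over 6 arrays, since 289 of 16320 genes compared reached r above 0.9. Fgf12, an intracellular homologue of fibroblast growth factors, and Tex14 passed in limma, with differences of 1.95 (SE 0.15, adjusted p = 0.00334) and 1.37 (SE 0.16, adjusted p = 0.0190). They were chosen by likeness to a mean that separates the genotypes, so these calls are no independent result. With 1 array left out Fgf12 passed in all 6 cases and Tex14 in 3. The mean of the members was -0.22, -0.17 and -0.11 in wild type arrays 1 to 3 against 0.19, 0.20 and 0.24 in mutant arrays 1 to 3. Rrh and Nyx carried most of this gap, since none of the other 7 genes differed by more than 0.51.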

How the data were processed

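Lens RNA of 3 wild type and 3 Notch2 mutant E19.5 embryos was measured on 1 array each. The authors deposited log2 values made with RMA, per the submitters' processing notes. RMA corrects background, normalises by quantiles and summarises probes. The log base is not stated and is taken from RMA's usual output. As deposited, each probe set has a median of 0 over the arrays to within 5e-07, and the sources used here name no step that does this. Sensitivity to low levels therefore cannot be judged, and the number of arrays limits precision.

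All 45037 probe sets other than 64 controls were fitted with limma 3.58.1 in R 4.3.3 (lmFit, eBayes, no covariate), checked on simulated data, with Benjamini-Hochberg adjustment and a threshold of 0.05. The simulated noise was independent and equally wide in every array, so it checked the code and not the fit to these arrays. For counts by gene the most variable probe set over the 6 arrays was taken. Members, 6 gene lists, 11 marker lists and the rule for named genes (every gene that passed and the 3 with the smallest p per gene list, and the 8 genes most like the member mean) were chosen with earlier results of these data known. Marker lists have no such rule; genes named from them, and others where stated, were picked after their values were seen.

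Alternatives were repeated quantile normalisation, subtracted array medians, array weights, a robust prior, no _x_at and _s_at probe sets, a replicate block, the hybridization control mean as a covariate, each array left out and, added after seeing the data, differences within either set of hybridization controls and a fit of only those probe sets whose SD over the arrays is above the median. A filter on dim probe sets and a variance trend need levels and were not run. Promoters came from RefSeq (GRCm38.p6). Same-numbered arrays deviated from their group means with correlations of 0.33, -0.14 and 0.26, so the numbers were not taken as pairs.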

Additional observations from a re-analysis of the deposited data

How the results depend on the processing

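Rrh and Nyx kept their direction and passed under each of 7 other settings that use every array (repeated quantile normalisation, subtracted medians, array weights, a robust prior, no _x_at and _s_at probe sets, the block and the covariate), with differences of 1.47 to 1.77 (limma adjusted p from 0.00532 to 0.0382) and 0.99 to 1.19 (limma adjusted p from 0.0146 to 0.0439). With 1 array left out, 0 to 1 member probe sets and 0 to 1 member genes passed. Over the whole array 584 probe sets passed with repeated quantile normalisation, 889 with array weights, 530 with the replicate block and 610 with the hybridization control mean as a covariate, and 7 to 155 with 1 array left out. The other gene lists together went from 4 called genes to 10 with quantile normalisation, 10 with array weights, 8 with the replicate block and 7 with the covariate, and to 0 to 6 with 1 array left out. A fit restricted to the probe sets with above-median spread was added after seeing the data. It called 738 probe sets, 11 genes of the other lists, 6 photoreceptor transcription factors, 1 outer segment gene and 4 bipolar cell genes, with Rrh and Nyx at limma adjusted p of 6.361e-06 and 0.0118. Choosing by the total spread keeps probe sets that differ between groups, and limma gave every probe set there the same SE of 0.296, so its p-values are no sign of stability. Of photoreceptor transcription factors 6 passed with quantile normalisation, 6 with array weights, 5 with the replicate block, 4 with the covariate and 0 to 4 with 1 array left out, and for bipolar cell genes 0 to 2 with 1 array left out. Of outer segment genes 2 passed with quantile normalisation and 2 with array weights, and of visual cycle genes 1 with the covariate. Differences near 0 changed sign. The Opn1sw probe sets read 0.079 and 0.093 with quantile normalisation, 0.011 and 0.0024 with subtracted medians and 0.13 and 0.24 with array weights, the most variable Arr3 probe set read 0.055 with array weights, and Gpr179 read -0.094 with the covariate. With 1 array left out the ranges were -0.12 to 0.16 and -0.22 to 0.27 for Opn1sw, -0.34 to 0.0036 for Gnat1, -0.41 to 0.019 for Rcvrn, and -0.22 to 0.11 and -0.10 to 0.016 for 2 Arr3 probe sets. For Trpm1 they were -0.043 to 0.44 and for Gpr179 -0.22 to 0.16. The cause of these shifts was not tested. In the 150 bases before the start only, 2 of the 7 members with a sequence held TGCTGA, and 10.1% of all promoters did. With 3 arrays per group and no levels, small changes of single members were not detectable.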

Other observations

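Wild type 3 was the highest or the lowest of the 6 arrays in 8 of the 12 member probe sets, lowest for Rrh, Nyx and Rxrg and highest for Gnat1, both Opn1sw probe sets and 2 of Arr3. Over all probe sets it was an extreme in 47.9%, against 22.5% to 39.6% for the other arrays.

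Of the protein-coding neighbours of all 9 members, 2 on either side in RefSeq's order, 29 were measured and limma called none. Of these 29, 3 had an unadjusted p below 0.05, where 15.6% of all genes did. They were Gas7 beside Rcvrn (-0.84), Fam71f1 beside Opn1sw (-0.53) and Slc38a3 beside Gnat1 (-0.75). The genes next to Rrh on chromosome 3 and to Nyx on chromosome X were looked up after the values of both were seen. Near Rrh, Egf differed by -0.25, Gar1 by 0.16 and Cfi by 0.29, and Lrit3 was not analysed here. Near Nyx, Usp9x differed by 0.04, Ddx3x by 0.25, Cask by 0.19 and Gpr34 by -0.09. For these 7 the unadjusted p lay between 0.127 and 0.875.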
